A study of Homo sapiens with 38 samples.

Results

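The EWS IDR-Sp1 DBD chimera and the isolated Sp1 DBD are compared here by their mouse anti-FLAG CUT&RUN peaks, so that the same zinc fingers are seen with and without a foreign intrinsically disordered region (IDR). Members were taken by sample label: 4 of the 38 samples of the series, 2 biological replicates of each line, and the 2 peak lists made from them. The chimera list holds 2535 peaks and the DBD list 3277 peaks, of 27085 peaks in the 19 lists of the series. A peak that shares at least 1 bp with a peak of the other list is called shared, and any other peak is called private.

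CUT&RUN releases and sequences the DNA next to an antibody-bound protein. Both lines derive from a clone of U2OS, an osteosarcoma cell line, in which every copy of endogenous Sp1 carries V5 and Halo tags, and both keep that tagged Sp1 beside the transgene. Each transgene sits at the AAVS1 locus of puromycin-selected cells, is switched on by doxycycline (1 μg/ml, for 36 h before sorting and 36 h after), and carries an N-terminal SNAPf tag and C-terminal FLAG tags with nuclear localization signals. In the Sp1 DBD line the N-terminal IDR of Sp1 is absent, and in the EWS IDR-Sp1 DBD line the EWS IDR stands in its place. Expressing cells were sorted, so each line is a selected and sorted population, and the amount of each protein was not part of these files. A peak list carries no expression values, so the cell line itself could not be checked against its markers. The authors ranked peaks by the −log10 p of the peak call in each library, and kept those with an irreproducible discovery rate of at most 0.1 over both libraries. Read depth was not analysed here, and a peak that is missing from a list may still have had signal in one or both of its libraries.

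Sp1 is a ubiquitous transcription factor that reads the GC box, GGGCGG, with zinc fingers near its C terminus, and GC boxes are common in the CpG-rich promoters of widely expressed genes. Its N-terminal region is disordered and holds glutamine-rich activation domains. EWS, the product of EWSR1, belongs to the FET family of RNA-binding proteins, whose disordered N-terminal domains become oncogenic when a translocation joins them to the DNA binding domain of another factor, as in EWS-FLI1 of Ewing sarcoma.

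The summit windows that carry the comparison are printed here, each as the reference sequence of hg38 on the plus strand, 100 bp to either side of the summit in the chimera list (or in the DBD list for a peak private to it). Capitals mark each GGGCGG or its reverse complement CCGCCC, and each TGANTCA, the letters of the AP-1 motif bound by Fos and Jun proteins. Windows that held an annotated untranslated region were passed over. The first set shows strong shared peaks, at CACFD1 (chr9:133459750-133459950), APLP1 (chr19:35869896-35870096) and USF3 (chr3:113696683-113696883). CACFD1 and USF3 held 2 GC boxes each, whereas APLP1 held none.
CACFD1: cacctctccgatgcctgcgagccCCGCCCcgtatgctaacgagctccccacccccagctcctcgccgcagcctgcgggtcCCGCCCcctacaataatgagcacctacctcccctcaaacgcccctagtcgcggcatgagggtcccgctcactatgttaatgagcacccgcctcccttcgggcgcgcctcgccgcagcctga
APLP1: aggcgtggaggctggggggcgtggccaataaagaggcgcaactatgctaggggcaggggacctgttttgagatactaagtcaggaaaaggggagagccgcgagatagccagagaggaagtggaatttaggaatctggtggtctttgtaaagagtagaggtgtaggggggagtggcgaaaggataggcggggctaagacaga
USF3: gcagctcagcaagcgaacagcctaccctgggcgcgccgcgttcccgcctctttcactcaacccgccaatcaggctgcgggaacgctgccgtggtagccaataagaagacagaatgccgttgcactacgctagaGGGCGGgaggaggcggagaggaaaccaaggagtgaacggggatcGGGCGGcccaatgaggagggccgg

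The second set shows strong private promoter peaks, those of GNAI2 (chr3:50235944-50236144) and CAMSAP1 (chr9:135907652-135907852) from the chimera list and that of DNPEP (chr2:219388174-219388374) from the DBD list. These windows held 3 GC boxes at GNAI2, 7 at CAMSAP1 and 8 at DNPEP, more than most private peaks: in the strongest quartile of each list, 40 of 94 peaks private to the chimera and 35 of 123 private to the DBD held at least 3.
GNAI2: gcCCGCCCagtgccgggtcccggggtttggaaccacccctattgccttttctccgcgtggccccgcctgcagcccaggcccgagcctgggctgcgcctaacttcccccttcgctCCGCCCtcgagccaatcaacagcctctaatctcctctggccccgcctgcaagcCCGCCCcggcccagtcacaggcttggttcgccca
CAMSAP1: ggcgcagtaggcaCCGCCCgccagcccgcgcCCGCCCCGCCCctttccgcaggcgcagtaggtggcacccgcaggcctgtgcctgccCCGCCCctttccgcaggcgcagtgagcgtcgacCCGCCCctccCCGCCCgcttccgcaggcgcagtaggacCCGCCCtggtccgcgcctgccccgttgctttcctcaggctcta
DNPEP: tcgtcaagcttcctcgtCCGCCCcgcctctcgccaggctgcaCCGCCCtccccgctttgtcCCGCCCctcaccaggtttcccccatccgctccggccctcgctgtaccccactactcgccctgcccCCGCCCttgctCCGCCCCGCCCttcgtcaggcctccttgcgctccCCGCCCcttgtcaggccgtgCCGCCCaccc

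The third set shows shared pairs that ranked higher with the EWS IDR and, nearest PLEKHH3, a peak private to the chimera. That private peak ranked 15 in the chimera list, with −log10 p of 70.1 and 61.9, and had no DBD value to compare. BCL3 (chr19:44747389-44747589) holds GC boxes and an AP-1 motif. PLAU (chr10:73906919-73907119), ANXA2 (chr15:60349947-60350147) and the peak nearest PLEKHH3 (chr17:42678146-42678346), which were chosen after their values were seen, hold no GC box and lie away from annotated starts. The ANXA2 window is a tandem array of G-rich units in an intron.
BCL3: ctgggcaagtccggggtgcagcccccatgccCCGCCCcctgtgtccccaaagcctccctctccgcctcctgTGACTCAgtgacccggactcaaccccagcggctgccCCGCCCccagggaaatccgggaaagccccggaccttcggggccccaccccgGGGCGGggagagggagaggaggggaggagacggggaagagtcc
PLAU: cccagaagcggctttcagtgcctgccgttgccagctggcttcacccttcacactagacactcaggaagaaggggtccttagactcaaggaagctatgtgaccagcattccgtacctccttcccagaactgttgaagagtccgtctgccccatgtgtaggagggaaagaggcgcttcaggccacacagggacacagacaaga
ANXA2: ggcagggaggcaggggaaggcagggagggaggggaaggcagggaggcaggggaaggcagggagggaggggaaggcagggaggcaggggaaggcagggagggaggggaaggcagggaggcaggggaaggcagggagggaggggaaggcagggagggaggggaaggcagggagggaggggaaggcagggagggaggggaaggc
PLEKHH3: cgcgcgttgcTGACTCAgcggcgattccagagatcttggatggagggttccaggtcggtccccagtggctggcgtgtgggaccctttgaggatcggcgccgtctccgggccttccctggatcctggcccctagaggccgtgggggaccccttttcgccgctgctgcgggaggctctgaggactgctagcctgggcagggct

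Whether adding the IDR redirects the zinc fingers was asked first by counting shared and private peaks. Of the chimera peaks 1830 were shared and 705 private, and of the DBD peaks 1816 were shared and 1461 private. Few private peaks lay just beside a listed peak of the other line: 98.6% of those of the chimera and 98.9% of those of the DBD had none within 1000 bp. This cannot show whether the other line had signal just below the reproducibility threshold. Sharing followed rank in both lists. In the strongest quartile of each list, 14.8% of chimera peaks (94 of 634, 95% Wilson interval 12.3 to 17.8) and 15% of DBD peaks (123 of 820, 12.7 to 17.6) were private. In the weakest quartile the private share was 45.5% in the chimera list (288 of 633, 41.7 to 49.4) and 74.7% in the DBD list (612 of 819, 71.6 to 77.6). These intervals cover counting error over peaks only, because each line has a single list. With the DBD list held to its 2535 strongest peaks, 64.9% of chimera peaks and 64.3% of DBD peaks were shared. Most shared peaks had a single partner, so lists of the same length must give nearly equal shares. The unlike shares of the full lists follow in the same way from their unlike lengths, and say nothing by themselves about the proteins. The share of private peaks per chromosome ran from 15.9% (X) to 37.3% (7) in the chimera list and from 37.1% (3) to 56.5% (4) in the DBD list.

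**Figure D1:**
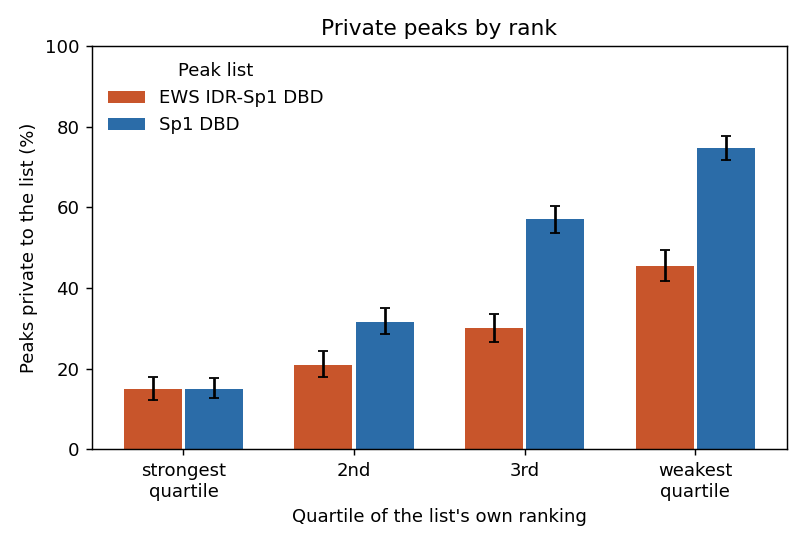
Percentage of peaks private to each list (y axis) by quartile of that list's own ranking (x axis), with 95% Wilson intervals. The strongest quartiles were at 14.8% and 15%, and the weakest quartile was 45.5% private for the chimera and 74.7% private for the DBD.

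Peaks that only the chimera list held lay at promoters less often than any other class. A transcription start lay within 1000 bp of the summit in 64.0% of peaks private to the chimera (451 of 705), in 88.2% of its shared peaks, and in 89.3% of peaks private to the DBD (1305 of 1461). The difference between the private classes was −25.4 percentage points (95% Newcombe interval −29.3 to −21.5), whereas private and shared peaks of the DBD differed by 1.16 points, with an interval of −1.04 to 3.32 that holds 0. The deficit was present in each quartile of rank, at −12.3 points in the strongest (−22.9 to −1.99), −26.9 in the second, −29.0 in the third and −26.3 in the weakest (−32.6 to −20.1). Measured from each library's own summits, 64.1% and 64.0% of the chimera's private peaks lay near a start in its 2 libraries, against 89.3% and 89.0% for the DBD. Both values of a line rest on the same peaks and differ only through the place of the summit, so they are no replication of the difference. Of the 254 private chimera peaks with no start within 1000 bp, 135 were intronic, 112 intergenic and 7 exonic. Their median distance to the nearest start was 8020.5 bp, against 4556 bp for the 156 such peaks private to the DBD, and 41.3% against 27.6% lay more than 10 kb away.

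The base composition of the summits moved with the promoter share. The median number of CpG dinucleotides in the 201 bp window was 12 in peaks private to the chimera (interquartile range 5 to 20), 17 in shared peaks of either list and 18 in peaks private to the DBD (13 to 23). The median observed over expected CpG ratio was 0.645, 0.769, 0.774 and 0.799 in the chimera private, chimera shared, DBD shared and DBD private classes, in that order. Median GC content differed less, at 66.2% for peaks private to the chimera and 68.7% for those private to the DBD.

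GC boxes followed the same split. GGGCGG, searched on both strands within 100 bp of the summit, was found at 61.7% of peaks private to the chimera (435 of 705) and at 73.5% of those private to the DBD (1074 of 1461), a difference of −11.8 points (−16.1 to −7.60), and at 76.9% and 76.5% of the shared peaks. For scale, 46.9% of 19970 protein-coding gene starts held it in a window of the same length, and 7.70% to 8.11% of windows 2000 bp to either side of the summits did. Near starts, 74.1% of 451 chimera peaks and 75.8% of 1305 DBD peaks held the box, a difference of −1.73 points with an interval that held 0 (−6.52 to 2.79). Away from starts the shares were 39.8% of 254 and 54.5% of 156 (−14.7 points, −24.3 to −4.78); there 13.4% of the chimera peaks and 30.1% of the DBD peaks were in repeated sequence, whose part in this difference was not tested. In the strongest quartile 74.5% of peaks private to the chimera and 70.7% of those private to the DBD held the box, with an interval of the difference from −8.38 to 15.3. The longer GC box GGGGCGGGG, which contains GGGCGG, was at 26.7% and 29.1% of the private peaks (−6.36 to 1.65). The related GT box, GGGTGGG on either strand, was more frequent in peaks private to the chimera (27.7% against 21.3%, difference 6.37 points, 2.53 to 10.3), also within promoters (7.37 points, 2.76 to 12.2). It was in 14.2% of gene starts.

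Of the 13 motifs searched, 3 were more frequent in peaks private to the chimera by an interval that left out 0: the GT box, the TATA box and, by the largest difference, the AP-1 motif. TGANTCA was at 59 of the 705 peaks private to the chimera (8.37%, 6.54 to 10.6) and at 24 of the 1461 peaks private to the DBD (1.64%, 1.11 to 2.43), a difference of 6.73 points (4.74 to 9.07), and at 2.40% and 2.42% of shared peaks. Windows 2000 bp away held it in 5.00% to 5.69% of cases and gene starts in 3.91%, so shared peaks and peaks private to the DBD lay below their surroundings and peaks private to the chimera above. Away from starts it was at 40 of 254 peaks private to the chimera (15.7%), at 11 of 216 shared chimera peaks (5.09%) and at 7 of 156 peaks private to the DBD (4.49%); the difference between the private classes was 11.3 points (5.27 to 16.8). At promoters it was at 4.21% and 1.30% (2.91 points, 1.22 to 5.23). The weakest quartile carried most of it, with 33 of 288 private chimera peaks against 9 of 612 private DBD peaks, and in the strongest quartile the counts were 5 of 94 and 2 of 123, with an interval of the difference from −1.41 to 10.3. Peaks private to the chimera were also less GC-rich and further from promoters, as given above, and the part of base composition in this difference was not tested. The motif's share without peaks in repeated sequence or in control lists was 8.68% against 1.60%. TATAAA, the letters of the TATA box, was at 3.12% and 1.78% of the private peaks (1.34 points, 0.01 to 3.0). At promoters the difference was 0.02 points, and without peaks in repeated sequence or control lists the interval held 0 (−0.28 to 2.59).

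Motifs typical of CpG-rich promoters moved the other way. CCAAT, bound by NF-Y, was at 17.2% of peaks private to the chimera and 29.2% of those private to the DBD (−12.1 points, −15.6 to −8.33), and the difference held at promoters (19.5% against 30.2%, −10.7 points, −14.9 to −6.08). The NRF1 motif was at 2.13% and 5.41% (−3.28 points), CCGGAAG, the letters of an ETS site, at 4.11% and 7.26% (−3.14 points), and CACGTG, the E-box, at 2.41% and 4.59% (−2.17 points), each with an interval below 0. At promoters the interval held 0 for CACGTG (−3.54 to 0.44). It stayed below 0 there for NRF1 (−4.33 to −0.04) and CCGGAAG (−5.29 to −0.27). Gene starts held NRF1, CCGGAAG and CACGTG in 5.81%, 10.2% and 5.88% of cases. For GGAAGGAA, the doubled ETS core of the repeats that EWS-FLI1 is known to bind through FLI1, the shares were 1.84% and 2.26%, with an interval of the difference from −1.59 to 1.02. TGACGTCA, the YY1 motif and the CTCF core were each at under 1% of both private classes with intervals that held 0.

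**Figure D2:**
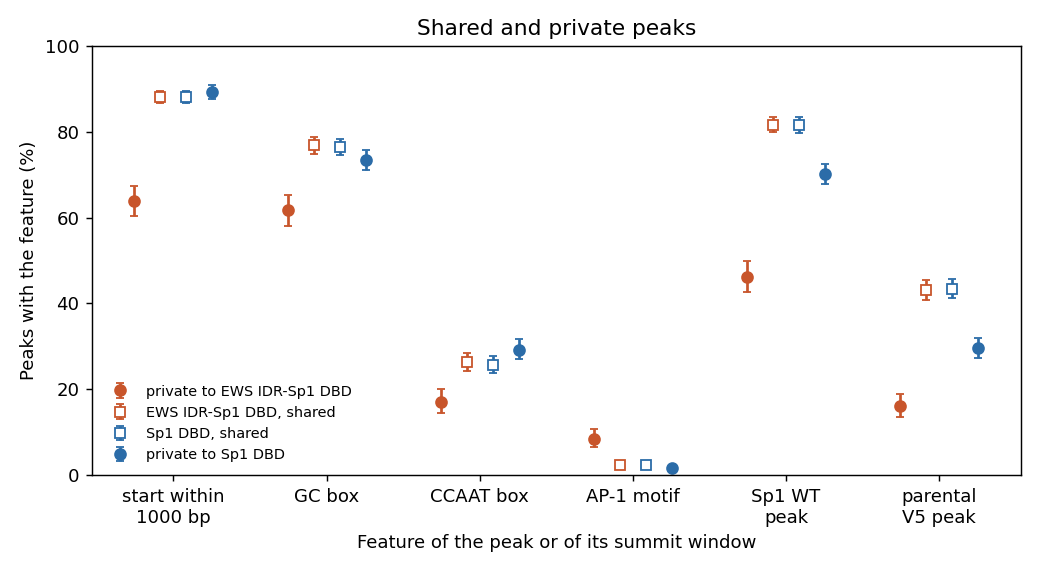
Percentage of peaks with each feature (y axis) in the 4 classes of peaks (filled for private, open for shared), with 95% Wilson intervals; motifs are within 100 bp of the summit. Shared peaks of both lists coincide, and peaks private to the chimera stand apart in every feature, lower for starts (64.0%), GC boxes (61.7%), CCAAT (17.2%), Sp1 WT (46.2%) and V5 (16%) and higher for the AP-1 motif (8.37%).

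Lists that were not used to define the classes also held fewer of the peaks private to the chimera. Peaks of full-length Sp1 expressed in the same way (Sp1 WT, 5151 peaks) covered 46.2% of peaks private to the chimera (326 of 705) and 70.2% of those private to the DBD (1026 of 1461), a difference of −24 points (−28.3 to −19.6), and 81.7% of shared peaks. Endogenous V5-tagged Sp1 of the parental line (rabbit anti-V5, 1987 peaks) covered 16% and 29.6% (−13.6 points, −17.1 to −9.92) and 43.1% and 43.4% of the shared peaks, and mouse anti-V5 gave 16.2% and 28.3%. Both differences were present at promoters (−16.4 points for Sp1 WT, −21.6 to −11.2, and −8.33 points for V5, −12.8 to −3.58) and away from them (−27.1 and −15.8 points). In the strongest quartile Sp1 WT covered 67 of 94 peaks private to the chimera (71.3%) and 84 of 123 private to the DBD (68.3%), with an interval of the difference from −9.43 to 14.9, and V5 covered 42.6% and 65.0% (−22.5 points, −34.8 to −9.12). Where a Sp1 WT peak was present, its median percentile in the Sp1 WT list was 58.0 for peaks private to the chimera, 57.1 for those private to the DBD and 75.9 and 75.8 for shared peaks. In neither Sp1 WT nor the V5 lists were 338 of the peaks private to the chimera and 350 of those private to the DBD, and of these 48.5% and 83.1% lay near a start (−34.6 points, −41.0 to −27.8). Anti-FLAG peaks of the parental line, which has no transgene, or of the SNAPf-NLS line, whose transgene has no Sp1 sequence, covered 13 of the 705 and 7 of the 1461 private peaks.

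At shared peaks the summits of both proteins fell at the same place, as far as replicates resolve it. Over 1813 pairs of peaks that were each other's best overlap, the summits of the 2 chimera libraries lay a median of 45 bp apart (lower and upper quartiles 15 and 115) and those of the 2 DBD libraries 41 bp apart (14 and 109). The 4 comparisons of a chimera library with a DBD library gave 42, 46, 46 and 41 bp, inside the range within lines or 1 bp beyond it. The summits given for the lists lay 35 bp apart, 78.2% of them within 100 bp. Orientation did not show a shift either: in 1430 pairs at a start of the same protein-coding gene, the chimera summit was further upstream in 754 and further downstream in 653, and the median shift was −2 bp. The median position was −76.5 bp from the start for the chimera and −79 bp for the DBD.

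Width differed beyond the replicates. The same pairs had median widths of 768 and 744 bp in the chimera libraries and of 989 and 908 bp in the DBD libraries. The median log2 width ratio was −0.00 between the chimera libraries and 0.05 between the DBD libraries, and −0.30, −0.23, −0.30 and −0.22 between a chimera library and a DBD library. Chimera peaks were thus narrower in each of the 4 comparisons, in 74.0% to 81.5% of pairs. Over all peaks of each list, the same peaks in both libraries of a line, the medians were 735 and 702 bp against 856 and 792 bp (chimera 718.5 ± 23.3 and DBD 824 ± 45.3, SD, n = 2; exact two-sided permutation p = 0.33, the smallest that 2 against 2 allows). The width of a called peak moves with depth, which was not analysed here, and its part in this difference was not tested.

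**Figure D3:**
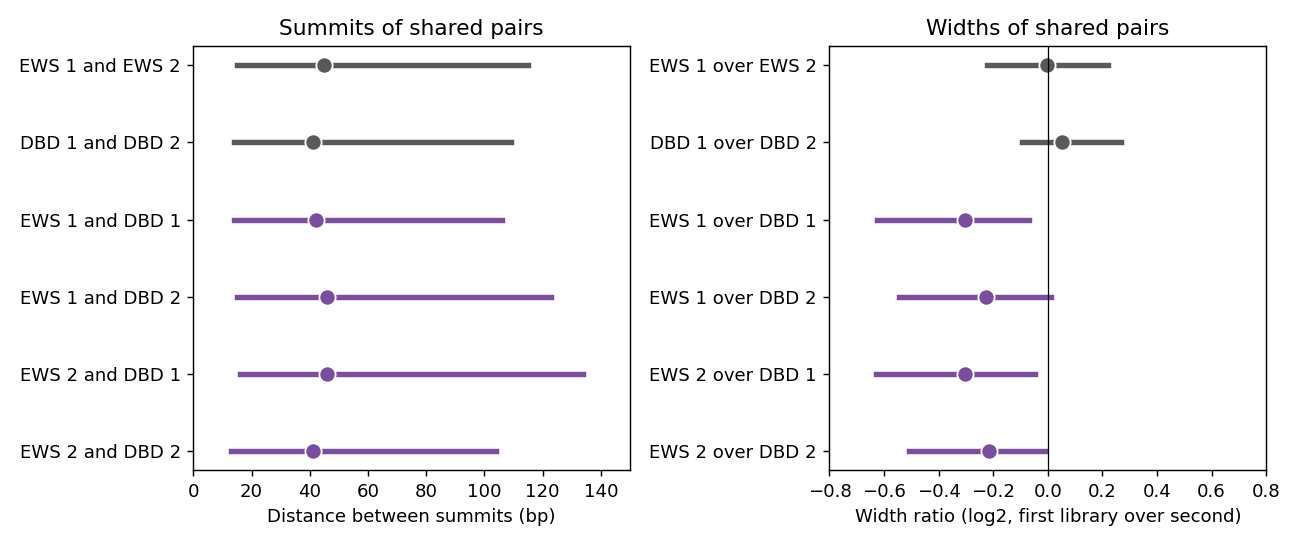
Distance between summits in bp (left) and log2 ratio of peak widths (right) over 1813 shared pairs, as medians (points) and quartiles (bars), within a line (grey) and between lines (purple); 1 and 2 are the library columns of each list. Summit distances between lines are 41 to 46 bp and those within lines 41 and 45 bp, whereas width ratios between lines sit at −0.22 to −0.30 and those within lines at −0.00 and 0.05.

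The rank order of shared peaks was partly kept between the lines. The Spearman rho of −log10 p over the 1813 pairs, given as a description because pairs share libraries and base composition, was 0.70 between the chimera libraries and 0.80 between the DBD libraries. Between the lines it was 0.65, 0.56, 0.67 and 0.71, so chimera library 2 followed DBD library 2 as closely as it followed the other chimera library. Of 537 pairs in the strongest quartile of the chimera list, 442 (82.3%) were in the strongest quartile of the DBD list and 12 in its weakest. Of the pairs in the next 3 quartiles of the chimera list, in falling order, 207 of 493 (42.0%), 120 of 441 (27.2%) and 89 of 342 (26%) were in the same quartile of the DBD list. Shared DBD peaks were themselves unevenly spread over that list, with 697, 560, 352 and 207 in its quartiles from strongest to weakest. The shares in the same quartile therefore start from unlike bases and cannot be compared with each other.

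The strongest shared promoters were picked for high rank in both lists, so their likeness between the lines follows from that choice. By the mean of both percentile ranks, the first 10 protein-coding promoters outside repeats were IMPA2, CACFD1, APLP1, ELMO2, USF3, PARP11, SLC17A7, SAP130, MBD3L1 and ARHGEF17. At IMPA2, which encodes an inositol monophosphatase, −log10 p was 91.4 and 88.3 in the chimera libraries and 87.7 and 83.7 in the DBD libraries (ranks 3 and 4). At CACFD1, which encodes a calcium channel flower domain protein, the values were 66.6 and 83.7 against 81.7 and 90.4, with both summits at position 133459850 of chromosome 9, 115 bp from the start and within the window printed for it above. At USF3, a basic helix-loop-helix gene, they were 62.4 and 70.5 against 72.7 and 73.0. The chimera values were above the DBD values at IMPA2 and below them at USF3, and at CACFD1 the groups overlapped. APLP1, of the amyloid precursor family, had no GC box in its window and still ranked 12 and 7, with values of 64.1 and 86.0 against 92.5 and 80.3. Over the 10 pairs the scaled log2 difference ran from −0.17 to 0.16, with standard errors of 0.29 to 0.31, and none passed the test described next.

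Single pairs could be tested over libraries where both lists held a peak. The test used limma on the quantile-scaled log2 of −log10 p of the 2 and 2 libraries, with Benjamini-Hochberg adjustment over 1813 pairs and a threshold of 0.05. Each list had already been filtered for agreement of these values between its libraries. The spread within lines may therefore be understated, and the standard errors and adjusted p too small. It called 14 pairs higher in the chimera (0.772% of the pairs tested) and 5 higher in the DBD (0.276%). Unadjusted p was at most 0.05 for 131 and 106 pairs. Both chimera libraries were above both DBD libraries in 381 pairs (21.0%) and below them in 376 (20.7%) after scaling, which evens out any overall difference between the lines and so cannot show one. Without scaling the median log2 difference of all pairs was −0.19, and unadjusted p was at most 0.05 for 72 pairs higher in the chimera and 205 higher in the DBD. With a library left out, its line has 1 sample, which is assumed to vary like the libraries of the other line. With either chimera library left out, limma called 0 pairs in either direction (107 and 100, or 155 and 139, at an unadjusted p of at most 0.05), and with either DBD library left out it called 2 higher in the chimera and 0 higher in the DBD. The pairs called at CDC16, BCL3 and ANXA2 each passed with at least 1 library left out, and the other calls named below needed all 4, although their differences kept their sign. For PLAU, for example, the log2 difference was 1.63 and 1.68 without the first and the second chimera library.

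By the naming rule, 6 of the 14 pairs higher in the chimera were protein-coding promoters outside repeats: BCL3, TINAGL1, ALCAM, DUSP8, ZNF185 and CACHD1. At BCL3, an IκB family member that acts with NF-κB in the nucleus, −log10 p was 41.7 and 31.3 in the chimera libraries and 11.0 and 9.10 in the DBD libraries (log2 difference 1.93 ± 0.31, SE; adjusted p = 0.0034 by limma). The chimera peak there was 3618 bp wide and the DBD peak 718 bp, with summits 1927 bp apart, so the pair joins different parts of the locus. At TINAGL1, an extracellular matrix gene, the values were 29.9 and 31.1 against 11.0 and 13.5 (log2 1.46, adjusted p = 0.018 by limma). At ALCAM, a cell adhesion molecule, they were 28.8 and 32.5 against 13.6 and 11.3 (log2 1.42, adjusted p = 0.018 by limma). DUSP8, a MAP kinase phosphatase, had a log2 difference of 1.44, ZNF185, an actin-associated LIM protein, of 1.32, and CACHD1 of 1.32. At DUSP8 the summits were 401 bp apart, in peaks of 1528 bp (chimera) and 618 bp (DBD), and the chimera summit lay outside the DBD peak. The calls at ZNF185 and CACHD1 were lost with no scaling (adjusted p = 0.091 by limma for each), with normal scores (0.092 for each) and with the library columns paired by their order as a block (0.054 for each). In these 6 pairs, which were called on these same values, every chimera value was at least 21.4 and every DBD value at most 20.7.

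The other pairs higher in the chimera lay mostly away from starts or in repeats, and are named although the rule left them out. The pair nearest PLAU, the urokinase gene, sat 2158 bp from its start on the upstream side, with values of 28.1 and 30.0 against 9.36 and 10.9 (log2 1.60 ± 0.29, SE; adjusted p = 0.0080 by limma), no GC box and no Sp1 WT peak. The pair in an intron of ANXA2, 24458 bp from the nearest start, had 52.6 and 60 against 15.9 and 20.6 (log2 1.79). The largest difference, 2.23, was at a pair 3584 bp from CDC16, with 45.5 and 49.7 against 10.0 and 11.3 (adjusted p = 0.00039 by limma). The windows of ANXA2, CDC16 and CLPTM1L consisted of repeats: 100%, 96.5% and 100% of their stretches of 31 bases had another copy in hg38, and read placement in such sequence is uncertain. Without pairs in repeated sequence or control lists, 11 and 3 pairs were called. The remaining pairs were nearest LINC00494, DLGAP1-AS2, LINC01160 and PIM1. LINC01160 and BCL3 held the AP-1 motif.

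Promoters raised in the DBD were fewer in the main fit. Without scaling the calls were closer in number, at 9 pairs higher in the chimera and 7 higher in the DBD. DBP, a circadian bZIP transcription factor gene, had 51.0 and 48.7 in the DBD libraries against 10.7 and 19.6 in the chimera libraries (log2 −1.66 ± 0.32, SE; adjusted p = 0.013 by limma), with peaks of 3905 bp in the DBD list and 3808 bp in the chimera list and summits 45 bp apart. OARD1, an ADP-ribose hydrolase gene, had 24.3 and 36.7 against 11.3 and 10.3 (log2 −1.35, adjusted p = 0.028 by limma). With the library columns paired by order as a block the call at OARD1 was lost (adjusted p = 0.067 by limma), and with normal scores that at DBP was (adjusted p = 0.051 by limma). The other 3 pairs were nearest ENSG00000260416, nearest ZNF213-AS1, and on an unplaced sequence, and in the first and last of these 64.3% and 98.8% of such stretches had another copy.

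**Figure D4:**
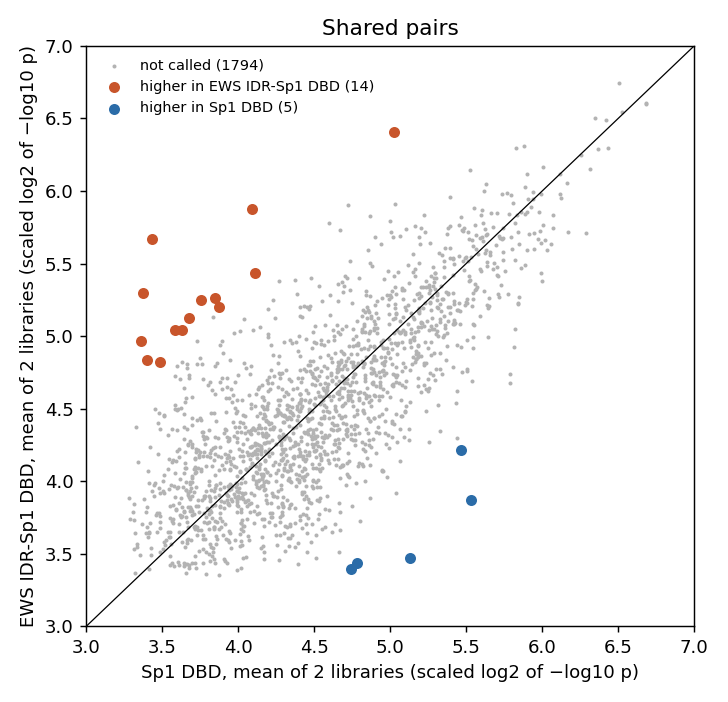
Mean scaled log2 of −log10 p of the 2 libraries for each of 1813 shared pairs in the Sp1 DBD (x axis) and EWS IDR-Sp1 DBD (y axis) lists; the line marks equal values. The 14 pairs called higher in the chimera and the 5 called higher in the DBD lie off the diagonal, and all other pairs, in grey, were not called.

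Shared pairs away from starts, or with the AP-1 motif, were higher in the chimera by about as much as replicates of a line differed, and the few pairs with both traits by more. The 207 pairs with no start within 1000 bp had a median scaled log2 difference of 0.08, against −0.03 in the 1606 pairs near a start and −0.02 in all pairs, and both chimera libraries were above both DBD libraries in 31.9% of them, against 21.0% of all pairs. In these 207 pairs the medians of the 4 single comparisons between lines were 0.03 to 0.12. Those within lines were 0.02 for the chimera and −0.06 for the DBD. The 54 pairs with the AP-1 motif had a median of 0.14, and in 19 of them (35.2%) the chimera libraries were above. Their 4 single comparisons between lines gave medians of 0.00 to 0.21, and those within lines were −0.11 for the chimera and −0.04 for the DBD. Among the 12 pairs with the motif and no start, the chimera libraries were above in 9 and below in 0, with a median of 0.78, and the medians of the 4 single comparisons between lines were 0.68 to 0.88 while those within lines were −0.03 and −0.01. Of these 12 pairs 1 passed the test. This subset joins 2 traits already seen above in private chimera peaks of the same libraries. All its pairs rest on those libraries and are not replicates, so these values are a description. Pairs that endogenous Sp1 also held (789 in the rabbit anti-V5 list) had a median of −0.09, with the chimera above in 14.1% and below in 24.6%, but here the chimera libraries differed from each other by a median of −0.14.

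Private promoters of high rank are named by the same rule. For the chimera these were TMEM276, GNAI2, C8orf82, NDRG1, CAMSAP1, HIP1, BCL9, MYADM, KREMEN2 and PRXL2B. At GNAI2, an inhibitory G protein α subunit gene, −log10 p was 57.1 and 58.0 in the chimera libraries, the peak ranked 26, and no DBD peak overlapped it, while both Sp1 WT and rabbit anti-V5 peaks did. NDRG1, a stress-responsive gene, had 44.2 and 46.9 with no GC box in the window. CAMSAP1, which encodes a microtubule minus-end binding protein, had 44.3 and 44.2, HIP1, an endocytic adaptor gene, 43.1 and 50.9, and BCL9, a Wnt co-activator gene, 36.6 and 42.1. MYADM, with 45.7 and 36.5, was the only one of the 10 with no peak in Sp1 WT or in either V5 list. For the other 9, at least one of those lists held a peak.

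The first private promoters of the DBD were DNPEP, ZFP41, ATXN7L3, KDM6B, NUDT8, BRD3OS, GRK6, ZNF488, FAM117A and CCM2. DNPEP, an aspartyl aminopeptidase gene, ranked 6 in the DBD list with 80.8 and 89.8 and had no chimera peak, although Sp1 WT and both V5 lists had one. ATXN7L3, which encodes a subunit of the SAGA deubiquitinase module, had 75.3 and 76.8, and KDM6B, a histone H3 lysine demethylase gene, 61.8 and 60.3. KDM6B was also the one of the 10 without a V5 peak, and had a Sp1 WT peak. All 10 had a peak of Sp1 WT or V5. Endogenous or full-length Sp1 was thus listed at nearly all the private promoters named for both lines. A private call, also at high rank, is a statement about the lists. Signal below the reproducibility threshold in the other line was not measured here.

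**Figure D5:**
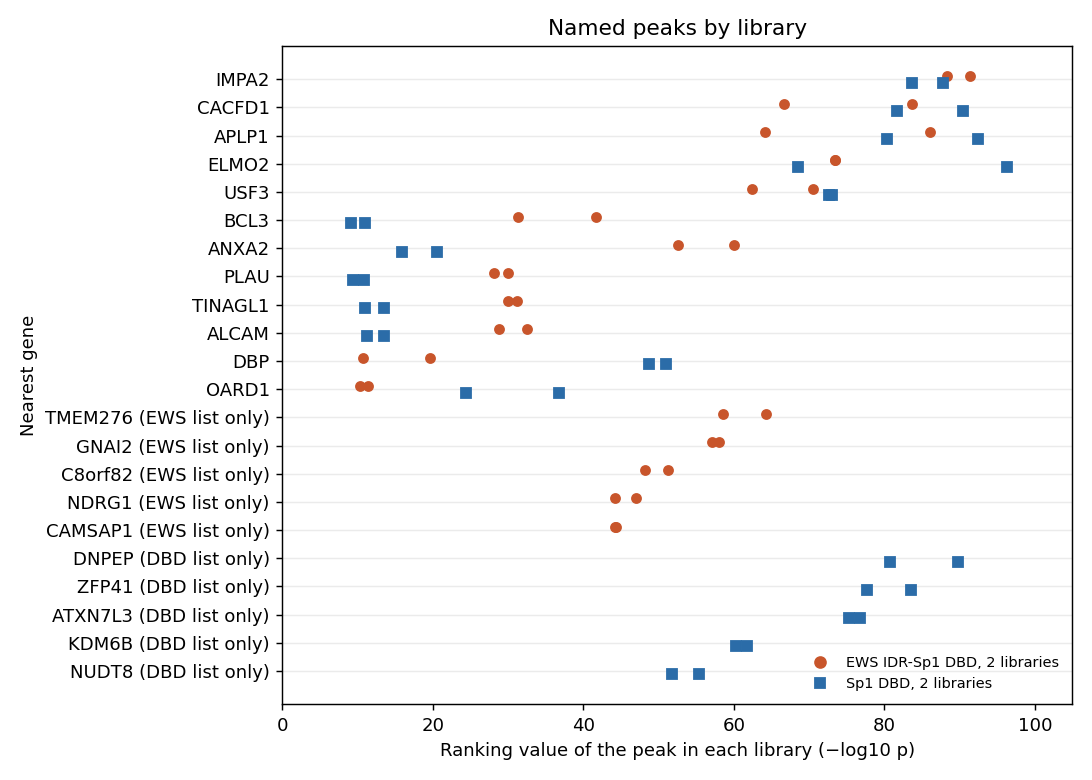
Ranking value, −log10 p (x axis), in each of the 2 libraries of each line at named peaks (y axis, nearest gene), for the 5 strongest shared promoters, 5 pairs called higher in the chimera, 2 promoters called higher in the DBD and the 5 strongest private promoters of each list. Circles are EWS IDR-Sp1 DBD and squares Sp1 DBD. At BCL3, ANXA2, PLAU, TINAGL1 and ALCAM the circles are at 28.1 or above and the squares at 20.6 or below. These 5 pairs are neither the naming rule's set nor the largest differences, since CDC16 is left out. They were called on these same values, so a gap follows from the choice. Of the called pairs not shown, some, such as CLPTM1L and DUSP8, fall outside these limits. Others, such as CDC16, fall within them.

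By gene, 19962 protein-coding genes were scored for a summit within 1000 bp of any of their starts. Both lists held 1736 genes (8.7%), the chimera list alone 421 (2.11%) and the DBD list alone 1390 (6.96%), so 80.5% of the genes of the chimera list and 55.5% of those of the DBD list were common. Sp1 WT held 244 of the 421 and 1025 of the 1390. Gene lists are given as counts, beside these shares. The mitochondrial ribosomal proteins had 5 genes in both lists, 0 in the chimera list alone and 6 in the DBD list alone, of 78. The cytosolic ribosomal proteins had 3, 1 and 4 of 84, proteasome subunits 3, 0 and 4 of 39, splicing factors 3, 0 and 4 of 54, aminoacyl-tRNA synthetases 5, 0 and 2 of 34, and respiratory chain complex I 3, 0 and 0 of 37. RNA polymerase II subunits and Mediator had 7, 0 and 4 of 40, with POLR2A, the largest subunit, in both. Replication factors had 6, 0 and 6 of 37, with the sliding clamp gene PCNA in both and the licensing factor gene CDC6 in the DBD list alone. The hnRNP genes, which encode RNA-binding proteins, had 1, 1 and 6 of 23: HNRNPK in both, HNRNPL in the chimera list alone, and HNRNPD, HNRNPDL, HNRNPF, HNRNPLL, HNRNPUL1 and HNRNPUL2 in the DBD list alone. ZNF genes had 43, 6 and 29 of 508 and replication-dependent histone genes 2, 1 and 0 of 69. Across the lists of this paragraph the DBD-only count was as large as or larger than the chimera-only count except for the histone genes, as in all genes.

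Among the genes of the Sp1 family itself (SP and KLF genes, 27 in all), 7 were in both lists, 0 in the chimera list alone and 3 in the DBD list alone. SP1 had 62.6 and 86.6 in the chimera libraries and 35.7 and 89.5 in the DBD libraries, so the groups overlapped (log2 0.47 ± 0.37, SE; adjusted p = 0.70 by limma). SP4 had 57.8 and 58.0 against 60.7 and 57.4. SP2, KLF9, KLF10, KLF11 and KLF12 were in both lists too, and none of the 7 passed the test. SP3, which encodes a close relative of Sp1, had 19.4 and 26.4 in the DBD libraries, KLF13 39.4 and 26.2 and KLF7 9.80 and 12, with no chimera peak.

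Of 25 classic Sp1 target genes, 3 were in both lists, 3 in the chimera list alone, 3 in the DBD list alone and 16 in neither. MYC had 17.7 and 19.6 in the chimera libraries against 18.5 and 13, HSPA8, a constitutive chaperone gene, 14.3 and 44.2 against 26.1 and 25.8, and MAOA, monoamine oxidase A, 25.4 and 17.4 against 22.8 and 25.4, with overlapping groups in each. Those in the chimera list alone included the cell cycle regulator gene E2F1 (24.8 and 24) and the growth factor gene TGFB1 (26.4 and 21.0). Those in the DBD list alone included ODC1, ornithine decarboxylase (12 and 11.5), and TK1, thymidine kinase (15.9 and 21.1). ODC1, TK1 and E2F1 had a Sp1 WT peak and TGFB1 had none. EWSR1 itself had no peak in either list. Of 20 genes known as EWS-FLI1 targets in Ewing sarcoma, NKX2-2 was in both lists and the other 19 were in neither. Over all protein-coding genes 8.7% were in both lists and 2.11% in the chimera list alone. A set of 20 genes is too small to be told apart from these shares.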

How the data were processed

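Libraries were made by CUT&RUN with mouse anti-FLAG M2 from sorted U2OS lines, with digitonin at 0.02% and MNase digestion for 30 min. Per the study's methods and processing notes, the authors trimmed reads (Cutadapt 2.6), aligned them to hg38 (Bowtie2 2.3.5.1), removed duplicates (SAMtools 1.9), called peaks for each replicate with MACS3 (given as version 2.2.7.1, p threshold 1e-3, merged replicates of the control as control), and ran IDR ranked by p-value. The deposited lists give −log10 p of the peak in each of 2 replicates and a score, the scaled IDR. The list value was the smaller of both replicate values in 2535 of 2535 and 3277 of 3277 peaks. Which labelled replicate each column holds is not given in the sources used here, and the columns are called library 1 and 2. Deposited tables of the authors' own differential comparisons were not used.

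Summits were annotated with GENCODE release 44 and searched for motifs within 100 bp (bedtools 2.31.1, pysam 0.24.0). A window was called repeated where at least 50% of its 31-base stretches had another copy in hg38. Peaks of 1 list are not replicates: shares have 95% Wilson intervals, differences 95% Newcombe intervals, both for counting error only, and no p. Over libraries, limma 3.58.1 was fitted to the quantile-scaled log2 of −log10 p of pairs that were each other's best overlap, and single values had exact permutation tests. The limma fit was tested on simulated data, which were drawn without the reproducibility filter of the lists. Genes were named by rule: the 10 strongest shared promoters, the 10 strongest private promoters of each list and up to 10 called pairs in each direction, at protein-coding starts outside repeats and control peaks, plus members of listed gene sets. The members and lists were chosen with earlier results of these data known. Some members of those sets are not reported here.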

Additional observations from a re-analysis of the deposited data

How the results depend on the processing

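Of 233 alternatives over 29 results, 0 reversed a direction, 116 changed little and 24 moved further. In the other 93 a threshold passed in the main setting was no longer passed, nearly all of them at single pairs called by limma. The share of chimera peaks that overlapped a DBD peak moved from 72.2% to 74.2% at an IDR of at most 0.01, to 66.9% with summits within 250 bp and to 64.9% with lists of the same length. The share of DBD peaks moved from 55.4% to 52.3% and 43.8% at an IDR of at most 0.05 and 0.01, to 51.8% with summits within 250 bp and to 64.3% with lists of the same length. The GC box difference between private classes no longer left out 0 for GGGGCGGGG (−2.42 points) or, in a split chosen after seeing the data, near starts only (−1.73 points). With 1 library of each line left out, the width ratio ran from −0.30 to −0.22, the GC box difference from −15.8 to −10.8 points and the summit distance from 41 to 42 bp.

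Calls by limma were the least stable values. Pairs higher in the chimera numbered 14, and 31 with median scaling, 9 with no scaling, 9 with normal scores, 11 without repeated or control pairs, 2 in the higher-ranked pairs only, and 0 to 2 with a library left out. Pairs higher in the DBD numbered 5, and 5 with median scaling, 7 with no scaling, 3 with normal scores and 0 in the higher-ranked pairs only (37 at an unadjusted p of at most 0.05). They numbered 3 without repeated or control pairs, an alternative chosen after seeing the data. Their counts with a library left out are given above. With library columns paired by their order as a replicate block, 10 and 3 pairs were called, and the calls lost were those at LINC01160, ZNF185, CACHD1, PIM1, OARD1 and the unplaced sequence. The labelled replicate of each column is not known and there are only 2 pairs (correlation of deviations 0.29), so the columns were not taken to pair the samples. Without scaling, the median log2 difference of all pairs was −0.19.

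Read depth was not analysed here, so a difference in peak number or width cannot be told apart from one in depth or in the amount of protein.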
